A study of Mus musculus with 4 samples.

Results

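Open chromatin was examined at 8379 distal gene-body regions that carried an ATAC-seq peak in all 4 libraries of lymph node (LN) Treg cells. Peaks of the 4 deposited lists that overlapped by at least 1 bp were merged, and a region was kept when it lay on an autosome, was under 2000 bp wide, and had its midpoint inside a protein-coding gene and at least 5 kb from every annotated transcription start site (TSS, GENCODE, GRCm38). These were 3.11% of the 269716 merged autosomal regions and 22.3% of the 37633 that were called in all 4 libraries. They were thus chosen by called peaks, and their presence in every library and their rank among the peaks of a library are described without a test. Differences in rank between the genotypes were tested. Cells were CD4+ Foxp3+ Treg cells, sorted as RFP+ cells from naive C57BL/6 females aged 6-8 weeks that carried the Foxp3Rfp/Rfp reporter, and each library came from 50000 cells. WT mice were compared with Il2ramut/mut mice, in which a spontaneous point mutation lowers CD25, the alpha chain of the IL-2 receptor, at the cell surface, with 2 libraries from biological replicates per genotype. Whether a library came from 1 mouse or from pooled mice is not given in the sources used here. The allele arose in a Ccr2-/- colony and was separated from that knockout by crossing to B6, and the mutation is carried by every cell of the mouse and not by Treg cells alone. The question was which chromatin regions depend on IL-2 signals.

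Peak lists of WT held 112569 (replicate 1) and 126761 (replicate 2) peaks, and those of Il2ramut/mut 122776 and 142732. Promoter peaks of Foxp3, Il2ra, Ctla4, Ikzf2, Cd4 and Cd3e were called in all 4 libraries. No promoter peak was called at Cd8a, Ms4a1, Cd79a, Ncr1, Klrb1c, Csf1r, Lyz2 or Itgam, whereas Cd8b1 and Pax5 had one in all 4 libraries and Cd14 in 2. Foxp3 lies on chromosome X and so could not be among the regions described here.

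Distal open regions inside genes include enhancers, which are short stretches of DNA where transcription factors displace nucleosomes and from which they act on a promoter at a distance. In T cells, factors of the ETS and RUNX families occupy many such elements, AP-1, NFAT and NF-kB factors act after antigen receptor stimulation, and STAT5 acts after IL-2. ATAC-seq reports only that Tn5 transposase could enter the DNA. No histone mark or enhancer activity was measured, so the regions are called open regions, although 94.5% of them (7922 of 8379, 95% Wilson interval 94 to 95) had their midpoint in an intron.

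The following windows are examples from the set. Prkcq and Lef1 give 2 of the most accessible regions in T cell genes. The Il2ra region, in the gene that is mutated here, and the Bach2 region are among the highest of their genes. Both were picked because they held a STAT word, so that word is there by choice. Col6a5 and Adamts14 give 2 regions whose rank differed between the genotypes. Lrmda and Asic2 give 2 regions from stretches where called peaks lay close together. Each is 200 bp of the GRCm38 plus strand (the coordinates of mm10, RefSeq assembly sequence), centred on the mean summit of the 4 libraries. Capitals mark every match, on either strand, to the 15 motif words described with the motif shares, and matches of different words can share bases.
Prkcq (chr2:11218194-11218393, intron 1, ETS, STAT, forkhead and KLF words): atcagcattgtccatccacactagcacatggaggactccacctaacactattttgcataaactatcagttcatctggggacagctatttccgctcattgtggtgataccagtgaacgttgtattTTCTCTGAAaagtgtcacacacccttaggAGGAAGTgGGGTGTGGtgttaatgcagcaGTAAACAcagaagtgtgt
Lef1 (chr3:131208619-131208818, intron 11, ETS and RUNX words): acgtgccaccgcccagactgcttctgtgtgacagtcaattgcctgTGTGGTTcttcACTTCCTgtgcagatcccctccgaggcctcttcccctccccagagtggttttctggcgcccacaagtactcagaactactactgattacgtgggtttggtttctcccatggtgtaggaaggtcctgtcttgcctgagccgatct
Il2ra (chr2:11655184-11655383, intron 1, STAT words): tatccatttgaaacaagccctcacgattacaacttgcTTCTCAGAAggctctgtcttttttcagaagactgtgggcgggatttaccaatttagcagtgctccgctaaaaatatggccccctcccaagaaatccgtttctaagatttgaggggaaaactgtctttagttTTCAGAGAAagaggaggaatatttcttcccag
Bach2 (chr4:32343858-32344057, intron 2, STAT, TCF/LEF and forkhead words): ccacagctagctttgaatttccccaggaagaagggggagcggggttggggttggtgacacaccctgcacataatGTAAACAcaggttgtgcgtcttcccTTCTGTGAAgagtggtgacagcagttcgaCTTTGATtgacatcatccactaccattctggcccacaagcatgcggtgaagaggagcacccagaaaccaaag
Col6a5 (chr9:105887564-105887763, intron 33, ETS and AP-1 words): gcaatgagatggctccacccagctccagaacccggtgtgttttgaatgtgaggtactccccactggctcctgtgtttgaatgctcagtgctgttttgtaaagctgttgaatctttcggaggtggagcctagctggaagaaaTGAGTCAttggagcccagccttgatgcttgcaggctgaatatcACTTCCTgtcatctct
Adamts14 (chr10:61233237-61233436, intron 4, ETS, STAT, E-box and KLF words): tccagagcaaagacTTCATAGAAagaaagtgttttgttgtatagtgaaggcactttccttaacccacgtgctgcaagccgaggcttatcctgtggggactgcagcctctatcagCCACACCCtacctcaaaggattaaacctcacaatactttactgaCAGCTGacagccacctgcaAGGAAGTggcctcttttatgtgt
Lrmda (chr14:22183351-22183550, intron 2, ETS and E-box words): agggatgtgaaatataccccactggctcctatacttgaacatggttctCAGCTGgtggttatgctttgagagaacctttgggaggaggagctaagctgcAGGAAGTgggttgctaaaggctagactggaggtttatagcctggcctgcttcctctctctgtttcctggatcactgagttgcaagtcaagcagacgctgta
Asic2 (chr11:81533488-81533687, intron 1, no word): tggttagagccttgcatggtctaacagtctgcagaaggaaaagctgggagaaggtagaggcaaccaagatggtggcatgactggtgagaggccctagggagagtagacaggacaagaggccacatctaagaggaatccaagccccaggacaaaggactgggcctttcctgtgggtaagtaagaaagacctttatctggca

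The regions fell into distinct kinds that the selection did not separate. The number of other merged regions within 50 kb either side was 0 to 9 for 2809 regions and 10 to 19 for 2087, fell to 80 regions with 40 to 49, and rose again to 1047 regions with 80 to 99 and 1079 with 100 to 129. Regions with at least 50 such neighbours, a value set after this distribution was seen, are called tiled here, and the others isolated. Tiled regions numbered 2568 (30.6%) and lay in 235 host genes, isolated regions numbered 5811 and lay in 2718, and 32 genes held both. Within 50 kb of a tiled region, peaks of a single library covered a median of 17.2% (WT 1), 21.3% (WT 2), 21.0% (Il2ramut/mut 1) and 21.6% (Il2ramut/mut 2) of the sequence, against 3.28%, 4.43%, 3.15% and 3.66% around an isolated region. Over all merged regions, tiled ones formed 626 stretches (gaps of at most 10 kb) that took up 5.84% of the autosomes, held between 38.8% and 43.2% of the regions of each library, and reached 2193 kb in length. The stretches were unevenly spread: 325 of the 573 distal regions on chromosome 14 were tiled, against 1 of 332 on chromosome 10 and 3 of 264 on chromosome 3.

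As a set, isolated regions were narrow, strong and repeatable in rank, and tiled regions were not. The rank of a peak is given here as the percentile of its −log10 p (the deposited p of MACS2, which called the peaks) among all peaks of its own library, with ties at their mean rank. Isolated regions had median percentiles of 81.9 and 84.5 in WT and 83.0 and 85.4 in Il2ramut/mut. Tiled regions had medians of 47.7 and 43.8 in WT and 55.5 and 62.3 in Il2ramut/mut, so they sat near the middle of every list. Over isolated regions, percentiles of library pairs had Spearman correlations of 0.761 to 0.830, and over tiled regions of 0.162 to 0.244, as a description across regions that share a library. The 4 summits lay within 100 bp of each other in 56.0% of isolated regions and in 4.28% of tiled ones, with a median spread of 90 bp and 453 bp. The median merged width was 581 bp and 914 bp. Isolated regions joined a mean of 4.18 peaks and tiled regions 5.09, so width and summit spread are not independent of how tiled regions were defined. All 4 libraries ranked 875 isolated regions (15.1%) but only 6 tiled regions (0.234%) at or above percentile 90.

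**Figure D1:**
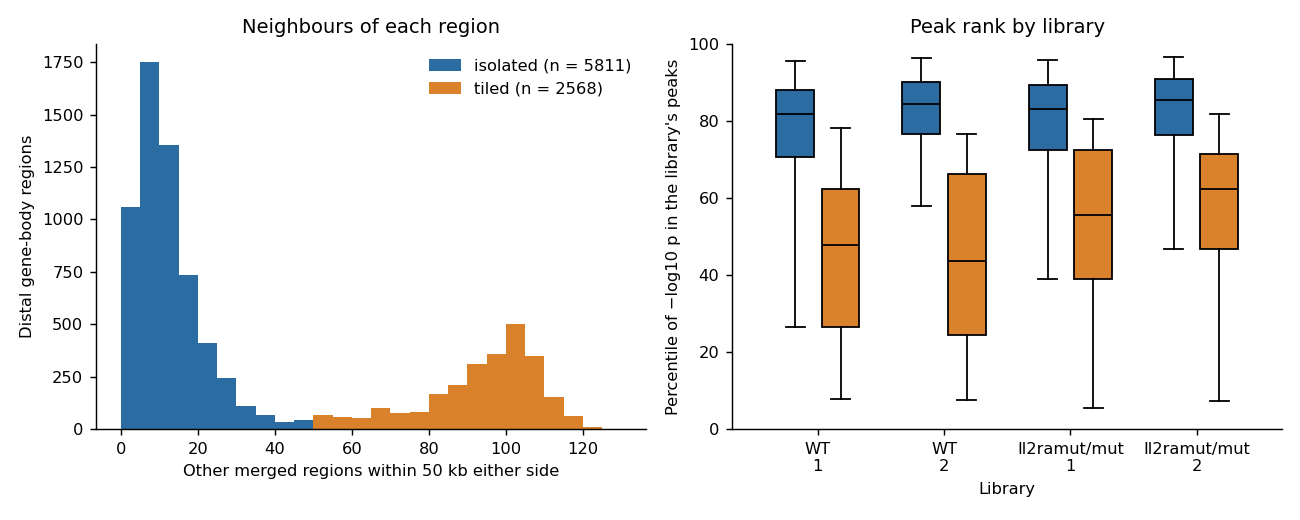
Left, the number of other merged regions within 50 kb either side of each distal gene-body region, stacked in bins of 5, with isolated regions in blue and tiled regions in orange. Right, percentile of −log10 p by library, with box limits at the quartiles, a line at the median and whiskers from the 5th to the 95th percentile of the regions; the tiled boxes sit below the isolated boxes in all 4 libraries.

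The read depth behind these ranks was low, and lowest in the tiled regions. In each list the fold enrichment took only values spaced by 1 read, if the background of a library is 1 fixed level and 1 read is added to signal and background alike, so that the number of extended reads over a summit could be read back for 100% of the peaks (within 0.05 of a whole number), and each number of reads had 1 p value. The weakest peak had 5 reads over its summit in 3 libraries and 6 in Il2ramut/mut replicate 1. Tiled regions had medians of 8, 8, 10 and 9 reads in WT 1, WT 2, Il2ramut/mut 1 and Il2ramut/mut 2, and isolated regions had 14, 20, 17 and 16. Regions within 1 kb of a TSS that were called in all 4 libraries had 28, 40, 37 and 34. For 8 reads, the exact 95% Poisson interval is 3.45 to 15.8, which covers counting error only. In WT 1, a summit of 8 reads already stood at percentile 47.7 and one of 9 reads at 62.4, so a single read moved a tiled region far in rank. With 1 background level per library, no local background entered the p values of the stretches. What sets the stretches apart was not tested.

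Ranked by number of regions, the host genes were led by tiled genes, several of them known for roles in neurons and not in T cells. Lrmda, a gene linked to melanocyte differentiation, held 125 regions, Asic2, an acid-sensing ion channel, 115, Kcnma1, a potassium channel, 111, and Plxna4, a semaphorin receptor, 108. Dock1 followed with 88, Cadm1 with 85, Agap1 with 76, Rbms3 with 73, Dpp6 with 70, Zfhx3 with 60, Rbfox1 with 55, Auts2 with 48, Gm20388 with 47 and Wdfy3 with 45. Apart from Agap1 (58 of 76 tiled) and Gm20388 (0 of 47), at least 45 regions of each of these genes were tiled. Gm20388 is a gene model of 4435 kb that also spans Ankrd11. The 15 genes with the most regions together held 13.7% of the regions. Lrmda had 996 merged regions of any number of libraries, of which 125 were called in all 4, and its regions had median percentiles of 47.7, 58.0, 55.5 and 62.3 in WT 1, WT 2, Il2ramut/mut 1 and Il2ramut/mut 2. The Lrmda region shown above was an exception, at 89.1, 88.6, 88.7 and 91.2 with 23, 28, 26 and 27 reads. The Asic2 region shown above, the highest of that gene, stood at 75.3, 66.3, 76.4 and 76.5 with 11, 10, 13 and 11 reads.

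Ranked by isolated regions, the order of host genes was different. After Gm20388, Foxp1, a forkhead factor that keeps T cells quiescent, held 26 isolated regions, Prkch, a protein kinase C of T cells, 24, and Fgfr2, whose gene model here spans 2961 kb, 22. Gm20696, which overlaps Foxp1, held 22, and Bach2, a repressor of effector programs that Treg cells need, Inpp4b, a phosphoinositide phosphatase, and Wwox 20 each. Rad51b held 19, Agap1 18, Ubac2 17 and Prkca 16. Bcl11b, a factor of T cell identity, held 20 regions, of which 8 were tiled and 12 isolated. The 24 Prkch regions had median percentiles of 86.0 and 90.8 in WT and 87.3 and 90.3 in Il2ramut/mut, and their strongest region, in intron 9 (chr12:73715252-73716395), stood at 96.7, 98.5, 98.0 and 99.0 with 56, 109, 90 and 109 reads. The strongest Foxp1 region, in intron 2 (chr6:99309044-99310174), stood at 93.6, 94.5, 93.3 and 95.1. The strongest Bach2 region, in intron 1 (chr4:32257580-32258759), stood at 96.7, 96.5, 96.5 and 96.1. In all 3 regions the libraries of both genotypes stood close together.

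**Figure D2:**
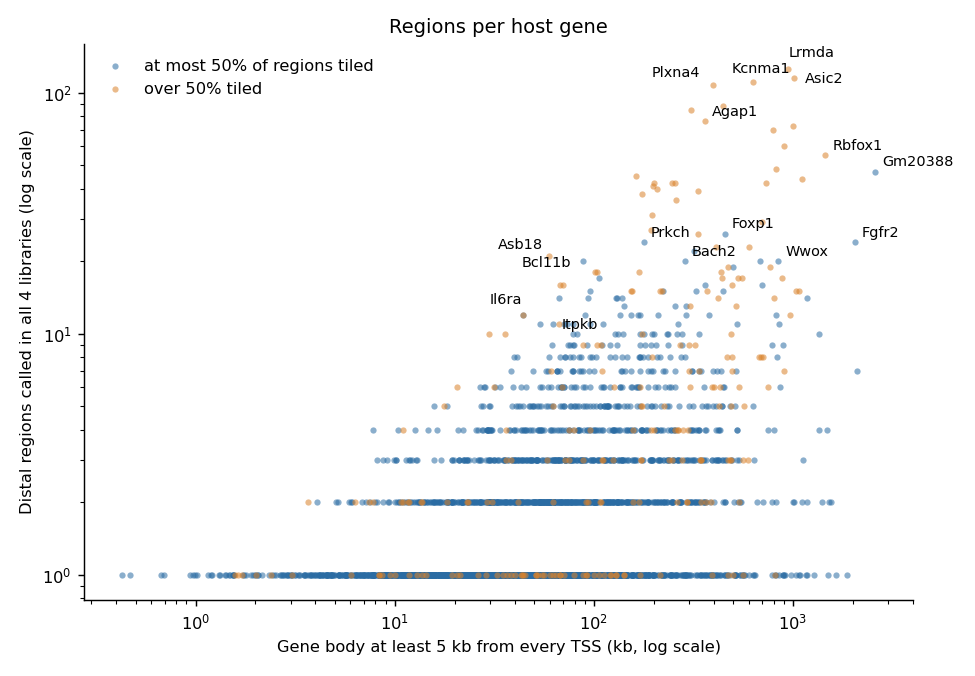
Each point is 1 of the 2921 host genes, with the length of its body at least 5 kb from every TSS (kb, log scale) on the x axis and its number of distal regions called in all 4 libraries (log scale) on the y axis. Orange points, genes with over 50% tiled regions, take most of the top of the plot, and Gm20388, Foxp1, Prkch and Fgfr2 are the highest of the genes with mostly isolated regions.

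Number followed gene length only in part. Across the 2921 host genes, the number of regions and the eligible length (the part of the gene at least 5 kb from every TSS) had a Spearman correlation of 0.437, and 0.256 for isolated regions alone. Of the hosts, 1613 held 1 region, 122 held at least 10, and 61 held at least 10 isolated ones. Per 100 kb of eligible length, among genes with at least 5 regions, the densest were Asb18 (35.4), Cds1 (33.6), Glipr2 (31.7), 4933402J07Rik (29.2), Tcp10c (28.3), Slc6a2 (28.0), Cadm1 (27.7), Wdfy3 (27.6), Il6ra (27.4) and Ttc12 (27.1). Of these 10 genes, Glipr2 and Il6ra had isolated regions and no tiled ones, and the other 8 had tiled regions and no isolated ones. Il6ra encodes the alpha chain of the IL-6 receptor, and its 12 regions filled 43.9 kb. One of them (chr3:89872057-89872928) stood at percentiles 99.5, 99.3, 99.4 and 99.0, while the Il6ra median was 80.3, 80.5, 80.9 and 81.5. Among genes with at least 10 regions, Itpkb, an inositol trisphosphate kinase of lymphocytes, had the highest median, with 11 regions at medians of 93.0, 95.3, 94.3 and 95.1 and 34, 60, 49 and 46 reads. Cmss1, Pitpnc1, Arhgef3, Prkch and Ski came next, with medians over the mean of the libraries between 88.7 and 90.6.

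**Figure D3:**
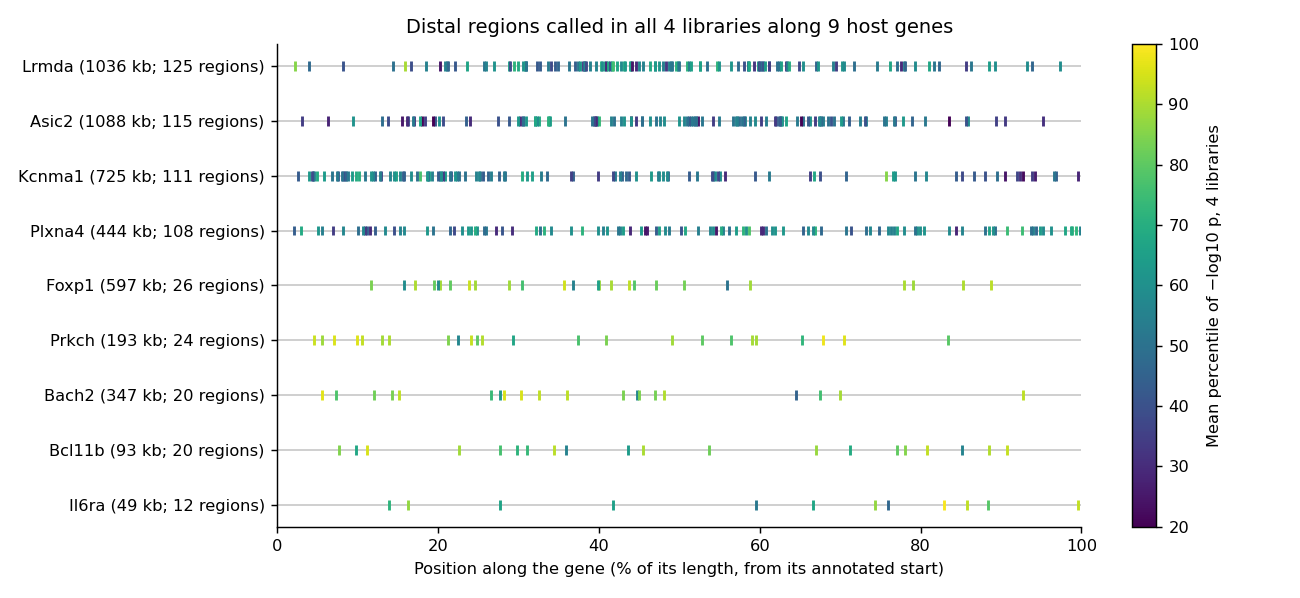
Position of each distal region along 9 host genes, as a percentage of gene length from the annotated start, coloured by its mean percentile of −log10 p over the 4 libraries. The 4 tiled genes at the top are covered by regions of low to middle percentile along most of their length, while Foxp1, Prkch, Bach2, Bcl11b and Il6ra hold fewer regions, most of them at high percentiles.

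Genes of T cell signalling held more of these regions per length than genes at large. All protein-coding autosomal genes together held 1.25 regions per 100 kb of eligible length, and 21.6% of the 13510 genes with any eligible length held at least 1. Of 33 genes of T cell receptor (TCR) and costimulatory signalling, 25 (75.8%) held 114 regions, or 6.88 per 100 kb, and 0 of these were tiled. The median eligible length was 31.3 kb for these 33 genes and 15.9 kb for the 13510. Shares of genes with a region are thus not matched for length. They were led by Cblb, a ubiquitin ligase that restrains activation, with 13, the kinase Fyn with 12 and Prkcq, the protein kinase C of the immune synapse, with 10. The Prkcq region shown above was among the strongest of the list, at 97.6, 99.0, 98.3 and 98.6 with 66, 128, 99 and 95 reads. Tnfrsf1b, the TNF receptor that Treg cells carry, held 6 regions, and its intron 1 region (chr4:145235752-145236659) stood at 98.6, 98.9, 99.0 and 98.6. In both regions every library was above percentile 97. Ptprc (CD45) held 8 regions, Nfatc1, Nfatc2 and Rasgrp1 7 each, and Cd247 5, whereas Ctla4 and Icos, with 5.56 and 7.39 kb of eligible length, held 0.

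T cell transcription factor genes held the most regions of the 9 lists. Of 44 with eligible length (median 49.3 kb), 34 (77.3%) held 198 regions, or 4.90 per 100 kb, with 7.58% tiled. After Foxp1 (26), Bach2 (20) and Bcl11b (20) stood Rora with 16, Ets1 with 15, Tox with 13 and Runx1 with 10, and Ikzf1, Ikzf2, Elf1 and Lef1 held 8 each. Ikzf2 encodes Helios, a factor of Treg cells, and its highest region (chr1:69544040-69544689) stood at 96.7, 97.5, 98.0 and 98.6. The Lef1 region shown above, in intron 11, stood at 97.9, 98.8, 98.3 and 98.9 with 70, 122, 97 and 106 reads. Tcf7, Satb1, Maf, Myb, Zeb2 and Relb held 0, with at least 12.1 kb of eligible length each. Chromatin regulator genes held 2.88 regions per 100 kb, led by Arid1b with 15 and Hdac4 with 10, and adhesion and migration genes 2.74, led by Elmo1, Fyb and Tiam1 with 7 each.

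Lists of other cell lineages held small numbers of regions, with densities that were not all low. Of 11 B cell genes, 7 (63.6%) held 10 regions (1.09 per 100 kb), with a median percentile of 77.1 over the mean of the libraries. Of 11 genes of myeloid and dendritic cells, 2 (18.2%), Zbtb46 and Flt3, held 4 (1.24 per 100 kb), with a median of 71.6. Of 9 genes of CD8 T and NK cells, 3 (33.3%), Cd244a, Crtam and Gzmk, held 1 region each with a median of 81.7, which over their short eligible length made 2.96 per 100 kb, above the 1.25 of all genes. Of 25 long neuronal genes, taken as a contrast of length, 16 (64.0%) held at least 1 region, at 0.341 per 100 kb. Of their 113 regions 77.9% were tiled, with 55 in Rbfox1, 15 in Dab1 and 12 in Cdh13, while Cntnap2, Lrp1b and Ptprd, with 1941 to 2116 kb of eligible length each, held 0. Great length thus did not go with many regions in every gene. Median percentiles of the mean over libraries were 83.8 for the TCR list and 85.2 for cytokine receptors and JAK-STAT. They were 83.9 for T cell transcription factors and 48.2 for long neuronal genes, beside 73.6 for all 8379 regions. Isolated regions alone had a median of 82.3. The TCR and cytokine lists held no tiled regions and the transcription factor list few, and their medians lay close to that isolated value.

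Among genes of cytokine receptors and JAK-STAT signalling, 19 of 36 (52.8%) held 62 regions, or 5.83 per 100 kb, with 0 tiled. Il2ra itself held 6 isolated regions in 31.9 kb, all of them in a run of peaks between 8781 and 17455 bp from the nearest TSS. The strongest (chr2:11653230-11654020, intron 1) stood at 95.7 and 96.8 in WT and 96.3 and 97.5 in Il2ramut/mut, with 48, 76, 65 and 71 reads. The region with STAT words shown above (chr2:11654903-11655780) stood at 88.6 and 91.1 in WT and 86.8 and 86.3 in Il2ramut/mut, with 22, 36, 22 and 17 reads. In the first the genotypes overlapped, and in the second both WT libraries were higher (rank score difference −0.37 ± 0.18, SE, limma adjusted p = 0.521). None of the 6 Il2ra regions passed the limma test, and 0 had an unadjusted p under 0.05. Il2rb, the beta chain, held 1 region, Stat5b, the main transducer of IL-2, 4, Stat4 3, Jak1 9 and Tgfbr2 8, whereas Il7r, Il10ra, Jak3, Stat5a and Stat6 held 0, with Jak3 and Stat6 having 0.880 and 0.0780 kb of eligible length.

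At the top of the ranking stood a few regions with far more reads than the rest. The region whose lowest percentile over the libraries was highest lay in intron 3 of Chl1, a neural adhesion gene (chr6:103648944-103649424), and had 2396, 2378, 2346 and 1739 reads over its summit. The next, in intron 11 of Zfyve28, had 171, 266, 223 and 229. No other region came near the Chl1 value, and why it stands so high was not tested. Regions in Gm525, Jakmip1, Mrps27, Ptk2b, 4932438H23Rik, Anxa6, Ago2 and Lars2 completed the 10 highest, each at percentile 99.1 or above in every library. Of these, Ptk2b is a kinase of lymphocyte adhesion and Ago2 a core protein of RNA silencing. Both genes held 14 regions in all, none of them tiled.

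Sequence was not used to choose the regions, and motif shares differed between isolated and tiled windows. Each window was centred on the mean of the 4 summits. Summits spread over a median of 453 bp in tiled and 90 bp in isolated regions, so tiled windows more often missed a library's own summit. How much of the gap in motifs goes with this was not tested. The 200 bp windows were searched on both strands for 15 motifs, 12 of them as fixed words and NF-kB, IRF and CTCF as patterns. A match is not a site, and the intervals cover counting error only. The ETS word AGGAAGT stood in 22.6% of isolated windows (21.6 to 23.7), 6.31% of tiled windows (5.43 to 7.32) and 4.68% of windows 2 kb from isolated regions that held no peak. The RUNX word, TGTGGTT, had shares of 13%, 5.10% and 4.93% in the same order. Bound by the dimers that form after receptor stimulation, the AP-1 word TGANTCA had 11.8%, 6.04% and 5.73%. For the NF-kB pattern these shares were 5.23%, 2.22% and 1.41%, and for the IRF pattern, of the interferon regulatory factors, they were 5.06%, 1.48% and 2.59%. The pattern of CTCF, an insulator protein that anchors chromatin loops, stood in 3.99% of isolated windows, 0.389% of tiled windows and 0.0870% of the windows 2 kb away. Each of these motifs was thus more frequent in isolated than in tiled windows.

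Other motifs set the kinds apart by fewer points or not at all. The STAT word TTCNNNGAA, of the factors that act after cytokines, stood in 7.59% of isolated and 5.57% of tiled windows (2.02 points, 95% Newcombe interval 0.863 to 3.11). The forkhead word TGTTTAC, which factors such as Foxp1 and Foxp3 can bind, stood in 4.04% and 2.41%. The TCF/LEF word, written CTTTGAT, had shares of 4.77% and 4.24%, and the interval of this difference included 0 (−0.474 to 1.44). So did that of the E-box word CAGCTG, with shares of 14.6% and 13.1% (−0.0960 to 3.08). Shares in isolated windows were 3.25% for the KLF word CCACACCC and 3.29% for the GATA word with the letters AGATAAG. They were 4.39% for the NFAT word spelled TGGAAAA, 1.45% for the NR4A word, which reads AAAGGTCA, and 1.20% for the T-box word, given as AGGTGTGA. Compared with windows 2 kb from tiled regions, tiled windows held more E-box words (6.91% in those windows, 6.18 points more, 4.31 to 7.97), ETS words (1.93 points more, 0.476 to 3.29) and NF-kB matches (1.42 points more, 0.647 to 2.15), and also more KLF and T-box words (1.18 and 0.614 points). They held fewer NFAT words (−2.52 points, −4.06 to −1.11), IRF matches (−2.24, −3.39 to −1.23), GATA words (−1.27, −2.39 to −0.271) and forkhead words (−1.17, −2.36 to −0.108). For the other 6 motifs the interval included 0. GC content differed between these sets, at 42.2% ± 6.87 (SD, n = 1506) in the windows away from tiled regions. It did not differ in the mean between isolated windows, at 48.9% ± 6.56 (SD, n = 5811), and tiled windows, at 48.9% ± 5.41 (SD, n = 2568). No motif stood in 54.9% of tiled and 30.7% of isolated windows.

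The gap in motifs was also present between regions of like rank, which were not matched for the spread of their summits. Among regions with a mean percentile between 40 and 70, ETS words stood in 17.1% of 1305 isolated and 6.24% of 1780 tiled windows (10.9 points, 95% Newcombe interval 8.56 to 13.2), and the CTCF pattern in 6.97% and 0.506%. Within the isolated regions, motifs also moved with rank. The top 25% by mean percentile held more ETS (28.0% against 16.9%), RUNX (17.3% against 9.83%), KLF (4.06% against 2.34%) and NF-kB (6.81% against 3.71%) matches than the bottom 25%, and fewer CTCF matches (1.03% against 6.94%, a difference of −5.91 points, −7.39 to −4.54). STAT words stood in 8.74% and 6.87%, and the interval of the difference included 0 (−0.0862 to 3.83 points). ETS and RUNX words stood together in 154 isolated windows (2.65%), among them the Lef1 window shown above, and in 10 tiled windows (0.389%).

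**Figure D4:**
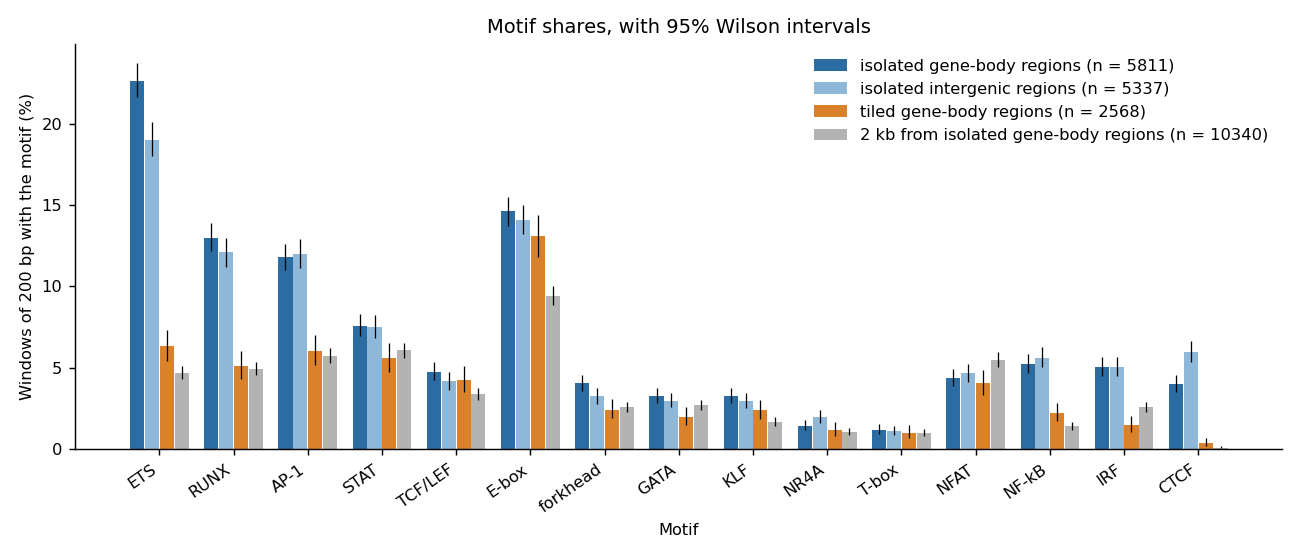
Share of 200 bp windows with each motif (%), as bars from 0 with 95% Wilson intervals, in isolated gene-body regions, isolated intergenic regions, tiled gene-body regions and windows 2 kb from isolated regions. The ETS bar of isolated gene-body regions is the tallest at 22.6%, while the tiled bars of ETS, RUNX and AP-1, at 6.31%, 5.10% and 6.04%, stand close to the grey bars of windows without peaks.

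Compared with 8282 distal regions called in all 4 libraries outside every gene, the gene-body regions held somewhat more ETS words (17.6% against 14.7%, 2.90 points, 1.78 to 4.01), RUNX words (1.06 points more, 0.145 to 1.97), TCF/LEF words (0.924, 0.319 to 1.53) and forkhead words (0.755, 0.223 to 1.29). They held fewer CTCF matches (2.89% against 4.02%, −1.13 points, −1.69 to −0.579). For the other 10 motifs the interval of the difference included 0. For STAT words it was −0.474 to 1.06 points around 0.293. Tiled regions made up 35.6% of the intergenic set and 30.6% of the gene-body set. Between isolated sets alone, the ETS difference was 3.59 points (2.09 to 5.10), the forkhead difference 0.803 (0.104 to 1.5), the NR4A difference −0.522 (−1.02 to −0.0410) and the CTCF difference −1.98 (−2.80 to −1.18), whereas the intervals for RUNX and TCF/LEF words included 0 (−0.292 to 2.17 and −0.163 to 1.37). Intergenic percentiles were close to those inside genes, with isolated medians of 81.9, 83.8, 83.0 and 85.4. Regions within 1 kb of a TSS ranked higher, at 91.2, 92.0, 92.1 and 93.0, and held ETS words in 9.34%.

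Gene-body regions called in fewer libraries held fewer ETS and CTCF matches. ETS words went from 6.26% of the 55367 regions called in 1 library through 7.0% of 14976 in 2 and 8.46% of 7307 in 3 to 17.6% in all 4, and the CTCF pattern from 0.412% through 1.20% and 2.23% to 2.89%. NFAT words went the other way, with 4.98% in regions called in 1 library and 4.28% in all 4 (a difference of −0.699 points, −1.15 to −0.210), and for GATA and T-box words the interval included 0. The share of regions that were tiled was 46.6%, 65.5% and 65.4% for 1, 2 and 3 libraries, beside 30.6% for all 4, so tiled regions were most frequent among those called in 2 or 3 libraries.

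Within genes, the regions favoured first introns. Of all 8379, 30.3% (29.3 to 31.3) lay in the first intron of the longest protein-coding transcript, whereas first introns made up 22.1% of the 669.8 Mb of eligible sequence, and 23.2% of regions called in 1 library lay there. The share was 30.7% for isolated and 29.4% for tiled regions. Exons held 5.45% of the regions and 5.31% of the eligible sequence. Isolated regions lay a median of 13.7 kb and tiled regions 33.2 kb from the closest TSS. At the distance limit, the nearest region inside (Mcidas, 5001 bp) stood at 62.4, 78.5, 76.4 and 81.8 and the nearest outside (Zbtb7b, 4997 bp) at 86.0, 82.1, 72.6 and 81.8. The 309 regions up to 500 bp inside it had medians of 78.2, 82.1, 80.6 and 83.3, and the 309 otherwise alike regions up to 500 bp outside had 80.3, 83.8, 83.0 and 85.4. At the width limit, the 125 regions up to 200 bp inside had medians of 62.4, 66.3, 72.6 and 76.5 and 73.6% were tiled, and the 61 up to 200 bp outside, such as one in Dock1 of 2003 bp, had 70.7, 66.3, 72.6 and 76.5 and 75.4% were tiled.

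Few of these regions passed a test of accessibility rank between WT and Il2ramut/mut Treg cells. The selection had already removed any region without a peak in every library, so regions present in a single genotype could not be called. Between the means of the genotypes, the median absolute difference was 3.86 percentile points over isolated and 13.7 points over tiled regions. Between single libraries it was 4.10 (WT) and 3.98 points (Il2ramut/mut) over isolated and 18.5 and 16.0 over tiled regions, and these are not the same scale, since a mean of 2 libraries varies less than 1 library. To compare the genotypes, ranks over all 37633 autosomal regions called in every library were turned into normal scores, and limma tested each region with a two-sided test and Benjamini-Hochberg adjustment over all of them. Of the 8379 regions, 3 passed at an adjusted p under 0.05 with a higher rank in Il2ramut/mut (0.0358%, background 0.0186% of all regions tested) and 3 with a higher rank in WT (0.0358%, background 0.0452%). All 6 were isolated. The number of calls depended on the measure. On log2 fold enrichment limma called 43 and 30, beside 148 and 119 of all 37633. A stricter peak threshold, a −log10 q of 3 or more, gave 17 and 18 of 6136 regions, beside 55 and 92 of 30740. An unadjusted p under 0.05 was found for 843 regions (10.1%), for 13% of the isolated and 3.39% of the tiled ones, beside 9.73% of all 37633. In bulk cells, fewer cells with an open region cannot be told apart from less accessibility in each cell.

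Higher in Il2ramut/mut were regions in Col6a5, Med15 and Nckap5. The Col6a5 region (a collagen VI gene, chr9:105887395-105888087, intron 33) stood at percentiles 80.3 and 84.5 in WT and 94.3 and 95 in Il2ramut/mut, with 13, 20, 49 and 45 reads. The Med15 region (a subunit of the Mediator complex, chr16:17694678-17695301, intron 2) stood at 75.3 and 86.8 against 94.9 and 94.4, with 11, 24, 53 and 41 reads. The Nckap5 region (chr1:126817400-126818776, intron 1) stood at 90.4 and 90.2 against 96.6 and 96.6, with 26, 33, 69 and 59 reads. In all 3 both Il2ramut/mut libraries lay above both WT libraries. The rank score differences were 0.96 ± 0.16 (SE, limma adjusted p = 0.0188), 0.99 ± 0.18 (adjusted p = 0.0354) and 0.66 ± 0.13 (adjusted p = 0.0435).

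Higher in WT were regions in Adamts14, Znrf1 and Mfhas1. The Adamts14 region (a procollagen protease gene, chr10:61232957-61233643, intron 4) stood at 95.5 and 94.9 in WT and 84.0 and 85.4 in Il2ramut/mut, with 46, 57, 18 and 16 reads. The Znrf1 region (a ubiquitin ligase gene, chr8:111582173-111583215, intron 2) stood at 94.4 and 95.1 against 86.8 and 88.2, with 40, 58, 22 and 20 reads. The Mfhas1 region (chr8:35628045-35628819, intron 1) stood at 96.3 and 97.3 against 89.8 and 94.2, with 52, 84, 29 and 40 reads. In all 3 the WT libraries lay above the Il2ramut/mut libraries, with the smallest gap at Mfhas1. The rank score differences were −1.04 ± 0.15 (SE, limma adjusted p = 0.00522), −0.77 ± 0.14 (adjusted p = 0.0401) and −0.66 ± 0.13 (adjusted p = 0.0498). The next regions in order missed the threshold: Bcl2l11, the gene of the death factor Bim, with 25, 51, 14 and 14 reads (limma adjusted p = 0.0593), and Cytip, which restrains lymphocyte adhesion, were higher in WT, and Phc3 and Pard3 higher in Il2ramut/mut (adjusted p = 0.0601 for each of the last 3). None of the 6 calls was kept without WT replicate 1 (adjusted p = 0.781 for each) or without WT replicate 2 (0.668 for each), where 1 WT library stood alone. The 6 windows held ETS words in 3 (Col6a5, Med15, Adamts14) and a STAT word in 1 (Adamts14).

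**Figure D5:**
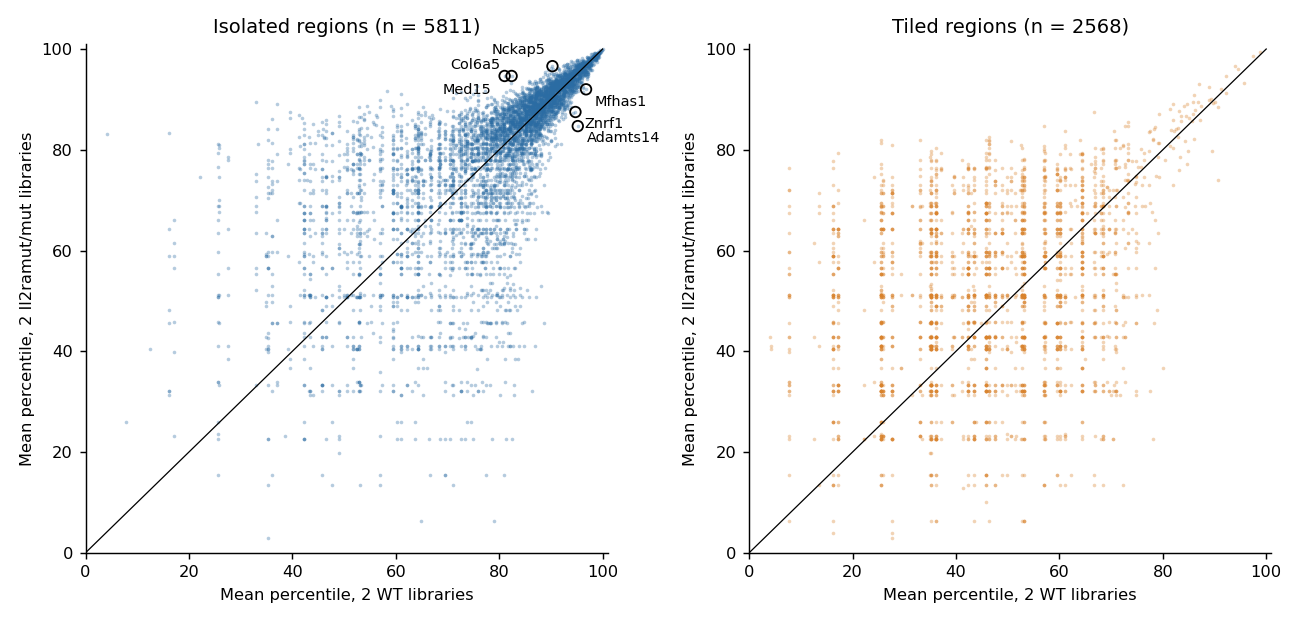
Mean percentile of −log10 p over the 2 Il2ramut/mut libraries against that over the 2 WT libraries, for isolated (left) and tiled (right) regions, with a line where they are equal. Circles mark the 6 regions with a limma adjusted p under 0.05, all isolated and all above a mean percentile of 80 in both genotypes; the vertical and horizontal rows of points are the steps of whole reads.

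By direction alone, both Il2ramut/mut libraries ranked above both WT libraries in 1994 regions (23.8%, background 26.0%), and both WT libraries above both Il2ramut/mut libraries in 1152 (13.7%, background 12.7%). These percentiles were taken in each library's own list, and the lists differed in length. Rank scores over the 37633 shared regions have the same distribution in every library. Their median difference, Il2ramut/mut minus WT, was 0.00718 for the 8379 regions and 0.00549 for all 37633. With 2 against 2 libraries an exact permutation test of 1 region cannot give a p under 0.33. Isolated regions had 24.3% and 14.9% in the 2 directions and tiled regions 22.6% and 11.2%, all near the background. The lists, whose regions share genes, were not tested for a difference from it. Cytokine receptor and JAK-STAT genes had 9 of 62 regions (14.5%) higher in Il2ramut/mut and 16 (25.8%) higher in WT. TCR genes had 28 (24.6%) and 21 (18.4%) of 114, T cell transcription factor genes 36 (18.2%) and 32 (16.2%) of 198, and long neuronal genes 33 (29.2%) and 7 (6.19%) of 113. With limma, 0 regions of any of the 9 lists passed. An unadjusted limma p under 0.05 was found for 3 TCR regions higher in Il2ramut/mut and 15 higher in WT. In the same order there were 1 and 4 cytokine regions, 6 and 14 transcription factor regions, and 3 and 3 adhesion regions. There were also 3 and 7 chromatin regulator regions, 1 and 2 myeloid regions and 6 and 1 long neuronal regions. Such a p was found for 0 of the B cell and of the CD8 T and NK cell regions. For both directions together, the share was 9.73% of all 37633 regions and 13% of the isolated gene-body regions. These shares were not split by direction, so whether a list leaned to either genotype more than regions at large was not tested. For single genes, chosen after their values were seen and not tested, the counts ran in either direction: in both WT libraries against both Il2ramut/mut libraries, Bach2 had 6 of 20 regions higher and 2 lower, Il6ra 4 of 12 and 0, Ikzf1 3 of 8 and 0, Foxp1 5 of 26 and 4, Ets1 3 of 15 and 3, Tox 2 of 13 and 2, Runx1 1 of 10 and 1, Ikzf2 0 of 8 and 1, Fyn 2 of 12 and 6, and Rora 1 of 16 and 5.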

How the data were processed

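ATAC-seq was performed on 2 WT and 2 Il2ramut/mut libraries of LN Treg cells. Per the submitters' processing notes and the study's methods, the authors trimmed reads with Trim Galore (0.3.7), aligned them to mm10 with BWA mem (0.7.13), removed duplicates and mitochondrial reads, kept concordant pairs, shifted reads, and called peaks in each library with MACS2 (2.1.0). SAMtools (0.1.19) and Picard (1.92) were also listed. The deposited lists give, per peak, the position, the summit, a fold enrichment (a ratio to background), the −log10 p, the −log10 q (lowest 1.30 to 1.70) and a score, which was not used. Library totals were not analysed here, so total depth is unknown.

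Peaks were merged and placed on GENCODE vM21 comprehensive annotation (55450 genes, 141767 transcripts) in Python (3.11.15) with pandas (2.3.3). Where a library had several peaks in a region, the highest was used. Sequences came from the RefSeq GRCm38 assembly. All peaks ended within the assembly's autosomes. An exon of any host transcript counted as exonic. Motif differences carry Newcombe intervals (statsmodels 0.14.6). Genotypes were compared with limma (3.58.1, trend) in R (4.3.3) on normal scores of ranks, since the lists hold no counts. Samples were grouped by their titles. P-values rest on the spread between 2 libraries per genotype, which limma moderated towards the spread shared over all regions tested. The merging, placing and read steps came out as set in 14 of 14 checks on made-up regions, and the limma step was tested on simulated data.

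The members, gene lists and tests were chosen with earlier results of these data known. Named hosts were the 15 with the most regions, the 10 densest with at least 5, and the 3 with the most in each of 9 gene lists; named regions were the 10 with the highest lowest percentile and the 5 per direction with the smallest p. Genes ranked by isolated regions, those with the highest medians, and other list genes were named after their values were seen. Alternatives were another q threshold, TSS distances, TSS sets, widths, annotations, peak values, windows, tests and left-out replicates. A few genes that these rules name are not reported here.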

Additional observations from a re-analysis of the deposited data

How the results depend on the processing

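The number of regions was 8379 and lay between 9805 and 10931 when a single replicate was left out, and within 1.5 times of 8379 under every other alternative: a −log10 q of at least 3, TSS distances of 2 or 10 kb, protein-coding TSSs only, no width limit, and, chosen after seeing the data, the basic annotation. The number of tiled regions was 2568, between 3487 and 4135 (without WT replicate 1) when a replicate was left out, and within 1.5 times of 2568 with at least 30 or 70 neighbours. The limma counts (3 higher in Il2ramut/mut, 3 higher in WT) did depend on the settings: with the replicate number as a block they were 32 and 24, with log2 fold enrichment 43 and 30, with a −log10 q of at least 3 17 and 18, and between 0 and 11 and between 0 and 36 without 1 replicate. The 3 and 3 were called again with the block and with the fold enrichment. The cause was not tested. Same-numbered libraries of the genotypes did not deviate together (correlation of deviations 0.0109 over regions), so the numbers are not taken as pairs. Without either WT replicate, limma, which then takes the lone WT library to vary like the others, called 0 regions, with 576 and 649 at an unadjusted p under 0.05. Regions without overlap between genotypes went from 1994 to between 3362 and 4698 and from 1152 to between 2390 and 3446 when 1 replicate was left out, which needs 1 library fewer to be beaten. The intron share was 95.2% with exons of protein-coding transcripts only, 95.8% at 10 kb or more from a TSS and 93.8% for isolated regions only. Of the motif differences from intergenic regions, the CTCF difference moved to −1.98 points in isolated regions only, and the other differences stayed within their intervals in the windows, centres and left-out replicates tried. The counts of tiled and non-overlapping regions without a replicate and the values for isolated regions only were added after seeing the data. Depth limits the ranks of tiled regions most, since 8 to 10 reads decide them.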
